A study of Mus musculus with 8 samples.

Results

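The expression of 10 genes of the blood-brain barrier and of the Wnt signal that maintains it was followed in the adult mouse hippocampus, 10 of the 46517 genes in the bulk RNAseq tables and 10 of the 24051 genes in the snRNAseq tables. They were taken by name from a list that was chosen with earlier results of these data known: Cldn5, Plvap, Slc2a1, Mfsd2a, Slco1a4, Slco1c1, Flt1, Pecam1, Adgra2 and Reck. In both data sets mutant mice (Wls fl/-;Gfap-Cre) were compared with control mice (Wls fl/+;Gfap-Cre), with 2 mice per genotype and assay, at about 12 weeks of age. Control mice thus also carried Gfap-Cre and 1 floxed copy of Wls, and mutant mice had a floxed copy opposite a null copy. The Cre transgene is driven by a Gfap promoter that is active in progenitors of the embryonic cortex and reaches their neuronal and astrocyte descendants. Endothelial cells do not descend from these progenitors.

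Brain capillaries are lined by endothelial cells that are sealed by tight junctions, have few vesicles and fenestrations, and carry nutrients across by dedicated transporters. Wnt7a and Wnt7b, made by neural progenitors and glia, act on these cells through a receptor complex in which Reck and Adgra2 (Gpr124) are the Wnt7-specific co-receptors, and the resulting beta-catenin signal keeps Cldn5, Slc2a1 and Mfsd2a on and Plvap off. Wls is the membrane protein that carries Wnt ligands to the cell surface, and cells without it cannot secrete Wnt proteins.

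In mm10 coordinates, Cldn5 lies on chr16:18776847-18778262 (plus strand), Plvap on chr8:71497765-71511752 (minus), Slc2a1 on chr4:119108711-119137983 (plus), Mfsd2a on chr4:122946850-122961188 (minus) and Slco1a4 on chr6:141805440-141856199 (minus). Slco1c1 lies on chr6:141524368-141570177 (plus), Flt1 on chr5:147561604-147726011 (minus), Pecam1 on chr11:106654217-106750628 (minus), Adgra2 on chr8:27085583-27123436 (plus) and Reck on chr4:43875530-43944806 (plus). The final 1819 bases of Plvap are shared with Gtpbp3 on the other strand, and 73 bases at the end of Adgra2 with Brf2. Slc2a1 shares 5011 bases with Mir1957a on its own strand and Gm12867 and Gm12868 on the other. Reck shares 77 bases with Gm27265 on its own strand. Slco1a4 belongs to a cluster of close Slco1a paralogs, between which reads may have been divided.

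Promoter sequences from RefSeq (GRCm38.p6) were at hand for 7 of the 10 genes: Cldn5, Flt1, Mfsd2a, Reck, Slc2a1, Slco1a4 and Slco1c1. TCF/LEF proteins are the DNA-binding partners of beta-catenin, so the 250 bases before each start were searched on both strands for the TCF/LEF sequences CTTTGAT and CTTTGTT. The latter was found in Reck and Slco1c1, and in 5.03% of all 32851 promoters of that length. The former was found in none of the 7, and in 3.21% of all promoters. The ETS sequences CAGGAAG and CCGGAAG, bound by a family that is active in endothelium, were in none of the 7, and in 10.8% and 6.91% of all promoters. The promoters of Reck (chr4:43875280-43875529), Slco1c1 (chr6:141524104-141524353) and Cldn5 (chr16:18776597-18776846) are shown on the strand of the gene, 5′ to 3′, the former pair because they hold a match, in capitals, and Cldn5 because its UMIs were the most concentrated in endothelial-marker nuclei. In Reck the match reads AACAAAG, the motif on the opposite strand, 121 to 115 bases before the start.
Reck: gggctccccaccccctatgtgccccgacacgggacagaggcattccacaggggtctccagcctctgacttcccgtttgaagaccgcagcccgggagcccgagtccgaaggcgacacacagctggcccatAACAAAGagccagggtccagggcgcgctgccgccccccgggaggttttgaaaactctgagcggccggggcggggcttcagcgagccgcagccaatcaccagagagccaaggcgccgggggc
Slco1c1: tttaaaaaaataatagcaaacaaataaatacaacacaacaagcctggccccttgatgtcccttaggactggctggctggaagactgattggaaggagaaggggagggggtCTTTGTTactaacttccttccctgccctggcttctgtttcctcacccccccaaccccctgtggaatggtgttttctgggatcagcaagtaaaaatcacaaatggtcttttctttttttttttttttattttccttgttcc
Cldn5: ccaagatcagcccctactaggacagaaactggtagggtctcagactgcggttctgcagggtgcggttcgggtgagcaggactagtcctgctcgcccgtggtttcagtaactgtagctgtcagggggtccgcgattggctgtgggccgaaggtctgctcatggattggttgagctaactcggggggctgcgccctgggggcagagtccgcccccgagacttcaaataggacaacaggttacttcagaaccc

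Both assays read RNA from both hippocampi of single mice. Bulk libraries held between 56002381 and 79576196 expected counts, and the 4 snRNAseq samples held 5304 to 10460 nuclei with 26307081 to 76486132 unique molecular identifiers (UMIs). Wls, the deleted gene, was at 3.67 and 6.86 CPM (counts scaled to a common library size) in the mutant bulk libraries and at 13.2 and 13.03 in the controls, and in astrocyte nuclei at 2.87 and 1.99 CPM in the mutants and 51.0 and 38.8 in the controls. In the snRNAseq samples 87 barcodes occurred in 2 samples. All mice are labelled male, but replicate 2 of each genotype in bulk RNAseq had Xist at 230.1 and 517.8 CPM and Ddx3y at 0.352 and 0.343, against 1.44 and 1.04 CPM of Xist in replicate 1, so that replicate number and the sex seen in Xist cannot be told apart in bulk RNAseq. Within-replicate log2 ratios of mutant to control are given for the 10 genes, Apcdd1, Notum, Hba-a2, Ptgds and Slc22a6. Choroid plexus markers set the mutant libraries apart. Their summed level was 1333 and 8898 CPM in mutant replicates 1 and 2 and 452.1 and 335.3 in the controls. In bulk tissue, fewer cells of a type and less RNA per cell cannot be told apart.

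None of the 10 genes passed the test between the genotypes in bulk RNAseq, and their differences were small. In the quasi-likelihood fit of edgeR, a gene was called at a false discovery rate (FDR, Benjamini-Hochberg) under 0.05. By that rule 0 of 10 were called, where 1.21% of all 20687 genes tested were. Wls, the deleted gene, was not called by it either, with a log2 difference of -1.31 (mutant minus control) and an FDR of 0.117. DESeq2, which called 8.42% of the genes it gave an adjusted p, and limma on the authors' matrix also called 0 of 10. At an unadjusted p under 0.05 there was 1 (Slc2a1), where 18.8% of all genes had such a p. The fold rule of the study (above 3-fold, with the same FDR) also called 0, and 0.218% of all genes. Fold changes ran from 0.842 for Cldn5 to 1.41 for Plvap, and no 95% interval reached below 0.684-fold or above 2.17-fold. The median log2 difference (mutant minus control) over the 10 genes was 0.09, and 0.01 over all genes tested.

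Cldn5, the main claudin of the endothelial tight junction, was at 17.9 and 21.3 CPM in mutant replicates 1 and 2 and at 24.5 and 22.1 CPM in the controls. Both mutant libraries were below both controls, by a log2 difference of -0.25 (SE 0.12, 95% interval -0.55 to 0.05, FDR 0.343 by edgeR), with -0.45 within replicate 1 and -0.05 within replicate 2. Plvap, the diaphragm protein of fenestrae and a mark of leaky vessels, was at 8.99 and 14.3 CPM in the mutants and at 8.70 and 7.91 CPM in the controls. Its difference of 0.49 (SE 0.24, interval -0.10 to 1.09, FDR 0.343) was carried by mutant replicate 2, the library richest in choroid plexus markers, since the ratio was 0.05 within replicate 1 and 0.85 within replicate 2. Without mutant replicate 1 the difference in Plvap was 0.79, and without mutant replicate 2 it was 0.11. The part of the choroid plexus markers in it was not tested.

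**Figure D1:**
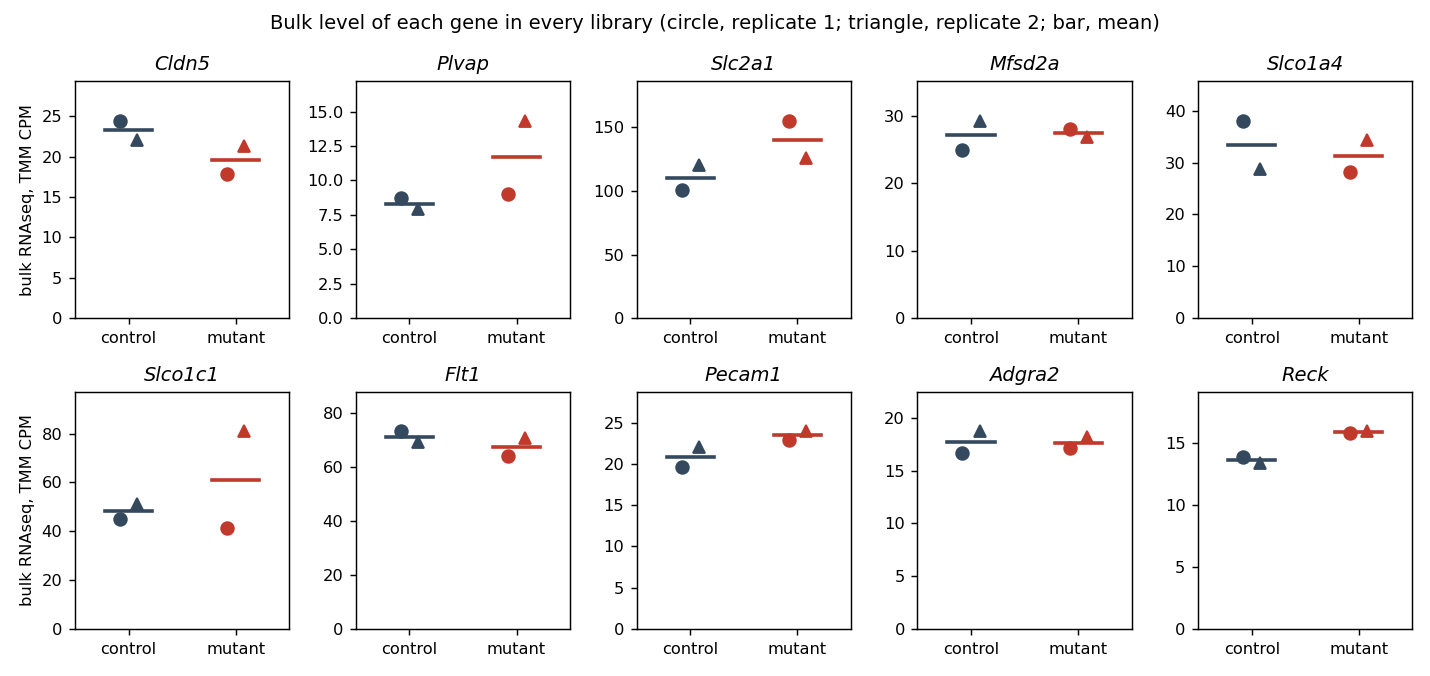
Bulk RNAseq level (CPM after TMM scaling, linear axis from 0) of each of the 10 genes in the 2 control and 2 mutant libraries; circles are replicate 1, triangles replicate 2 and bars the mean of 2. Slco1c1 and Plvap stand highest in mutant replicate 2 (80.9 and 14.3 CPM), and the genotypes overlap in 5 of the 10 panels.

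Among the transporters, Slc2a1 (Glut1, the glucose carrier of the barrier) was at 155.3 and 125.5 CPM in the mutants and at 100.9 and 120.1 CPM in the controls, both mutants being higher. The log2 difference was 0.34 (SE 0.13, interval 0.02 to 0.67, unadjusted edgeR p across all genes 0.0432, FDR 0.249), with 0.62 within replicate 1 and 0.06 within replicate 2, and with all genes kept regardless of count the FDR was 0.0156. Mfsd2a, the carrier of lysophosphatidylcholine that holds down vesicle transport, was at 28.1 and 26.9 CPM in the mutants and at 25.0 and 29.3 in the controls, with overlapping genotypes and a difference of 0.02 (interval -0.24 to 0.27; 0.17 within replicate 1 and -0.12 within replicate 2). Slco1a4 (Oatp1a4), a carrier of organic anions, was at 28.2 and 34.4 CPM in the mutants and at 38.1 and 28.8 in the controls, a difference of -0.09 (interval -0.51 to 0.32; -0.43 and 0.26 within replicates). Slco1c1 (Oatp1c1), the thyroxine carrier, was at 41.4 and 80.9 CPM in the mutants and at 45.1 and 51.2 in the controls. Its replicates moved in opposite directions, by -0.12 in replicate 1 and 0.66 in replicate 2. The pooled difference was 0.35 (interval -0.42 to 1.12, FDR 0.605). Without mutant replicate 1 it was 0.75, and without mutant replicate 2 it was -0.23.

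The vascular receptor and adhesion genes gave small differences. Flt1, the VEGF receptor 1, was at 64.0 and 70.7 CPM in the mutants and at 73.3 and 69.2 in the controls, a difference of -0.08 (interval -0.25 to 0.09; -0.19 and 0.03 within replicates). Pecam1, the junctional adhesion protein CD31, was at 23.0 and 23.98 CPM in the mutants and at 19.7 and 22.1 in the controls, a difference of 0.17 (interval -0.07 to 0.41; 0.22 and 0.12 within replicates). The 2 co-receptors of Wnt7 gave similarly narrow intervals. Adgra2 was at 17.2 and 18.1 CPM in the mutants and at 16.7 and 18.7 in the controls, a difference of 0.00 (interval -0.26 to 0.26; 0.04 and -0.05 within replicates). Reck was at 15.8 and 16.0 CPM in the mutants and at 13.9 and 13.4 in the controls, with a difference of 0.22 (interval -0.01 to 0.46, FDR 0.280) and similar ratios within replicates (0.19 and 0.25).

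**Figure D2:**
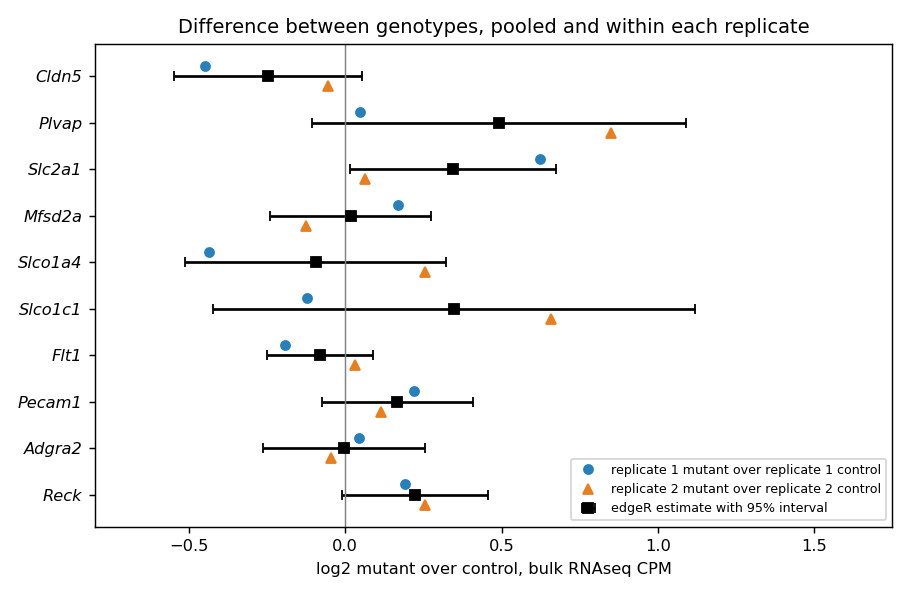
Log2 difference between mutant and control bulk libraries for each gene; squares are the edgeR estimates with 95% intervals (2 mice per genotype), circles and triangles the CPM ratios within replicate 1 and replicate 2. Only the interval of Slc2a1 (0.02 to 0.67) leaves out 0, and the replicates fall on opposite sides of 0 for 5 genes.

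The genotypes did not overlap for 5 of the 10 genes (4 higher, 1 lower in mutants), where 51.1% of all genes tested did not overlap in either direction, 25.8% being higher and 25.4% lower in mutants. With deposited TPM in place of CPM the number was 2 (Cldn5 and Flt1, both lower, against 49.1% of all genes). With each library divided by its summed level of 20 other endothelial genes, the number was 6 (Slc2a1, Plvap, Pecam1 and Reck higher, Cldn5 and Flt1 lower, against 51.7%). That summed endothelial level itself was 308.5 and 314.9 CPM in the mutants and 305.8 and 301.9 in the controls. Per transcript length, on the TPM scale, the order of mean levels was Slc2a1 (102.2), Slco1c1 (43.7), Cldn5 (32.6), Mfsd2a (27.7), Flt1 (21.9), Slco1a4 (20.8), Pecam1 (17.5), Plvap (10.4), Reck (7.67) and Adgra2 (7.43). Neighbours in this order did not overlap over the 4 libraries between Slc2a1 and Slco1c1 (85.05 to 119.2 against 31.8 to 63.7 TPM), Mfsd2a and Flt1, Pecam1 and Plvap, and Plvap and Reck, and the other 5 pairs of neighbours overlapped.

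The other genes of this pathway were read in the same fit. Of 22 genes of endothelial Wnt signalling, 0 rose and 1 fell, where 0.198% of all genes rose and 1.01% fell. Their median log2 difference was -0.09, with 9 differences above 0 and 13 below. In snRNAseq these genes summed to 1291 CPM in nuclei labelled astrocytes, 1056 in microglia and 2488 in the endothelial-marker nuclei described below. The cell of origin of their bulk differences was not tested. The gene that fell was Apcdd1, a Wnt inhibitor that is itself induced by beta-catenin signalling, which was at 13.8 and 12.98 CPM in the mutants and 26.4 and 25.2 in the controls (log2 difference -0.95, FDR 0.0244 by edgeR; -0.93 and -0.95 within replicates). With replicate number as a block its difference was -0.95 with an FDR of 0.0504, and 0 of the 22 genes were called. Without control replicate 1, or without control replicate 2, no gene of any list was called. Notum, a secreted Wnt deacylase that Wnt signalling induces, was at 1.04 and 1.22 CPM against 2.30 and 2.07, a difference of -0.95 with an FDR of 0.117 (-1.08 and -0.72 within replicates). Of the ligands, Wnt7a was at 10.0 and 12.1 CPM against 10.0 and 10.2, and Wnt7b was at 39.2 and 36.2 CPM against 37.3 and 40.9. Wnt7a and Wnt7b were named after their values were seen.

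Of 20 further endothelial genes, 0 were called, with the largest differences in Emcn, an endothelial sialomucin (0.63, FDR 0.165), and Vwf, the clotting factor carrier (-0.45, FDR 0.0924). Of 18 other barrier genes, 0 were called. The largest difference among these was in the junction gene Cgnl1 (2.07, FDR 0.234), which was at 81.0 CPM in mutant replicate 2 and between 11.3 and 15.0 in the other 3 libraries, followed by the amino acid carrier Slc38a5 (-0.93, FDR 0.153). Of 9 VEGF and angiopoietin genes, 0 were called, with Pgf at 0.62 (FDR 0.157) and Vegfc at -0.31 (FDR 0.610). Mural genes, those of pericytes and vascular smooth muscle, were called in 0 of 13, with Abcc9 at 0.59 and Acta2 at 0.55. Of 5 red blood cell genes 1 rose, Hba-a2, a globin with a near-identical copy, 2.46-fold (FDR 0.0102, and 0.0361 with the replicate block; 1.21 and 1.39 within replicates on the log2 scale), and Hbb-bt was at 0.89 (FDR 0.232). Of 13 meninges and fibroblast genes 2 fell, Ptgds by 0.56 and Slc22a6 by 1.83 on the log2 scale (FDR 0.0282 and 0.0426). With the replicate block these FDRs were 0.0580 and 0.0622, and 0 of the 13 genes were called. Within replicates Ptgds differed by -0.63 and -0.49 and Slc22a6 by -1.76 and -1.72. Of 15 choroid plexus genes 0 were called, with all 15 differences above 0, a median of 3.93, and Ttr, the thyroxine carrier transthyretin, at 5.59 (FDR 0.103). Astrocyte (8), oligodendrocyte (6), oligodendrocyte precursor (5) and microglia (6) genes gave 0 calls and medians of 0.09, 0.32, 0.11 and 0.03. At an unadjusted edgeR p under 0.05, which 18.8% of all genes had, there were 9 of the 22 endothelial Wnt signalling genes and 7 of the 13 meninges and fibroblast genes, and DESeq2 called 4 and 6 of them, against its 8.42% of all genes. The unadjusted count was 3 of 5 for red blood cell genes, with 1 called by DESeq2. For the lists with no call by edgeR there were 3 further endothelial, 5 other barrier, 4 VEGF and angiopoietin, 6 mural, 14 choroid plexus, 4 astrocyte, 0 oligodendrocyte, 1 oligodendrocyte precursor and 0 microglia genes, and DESeq2 called 2, 1, 1, 3, 12, 2, 0, 0 and 0 of these lists. All 5 granule cell genes fell, by 1.07 (Calb1) to 3.19 (Dsp), with 4 of them called under the replicate block.

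The snRNAseq matrices gave the cell of origin. The deposited labels hold 24 nuclei under EC, an abbreviation the sources used here do not spell out, of which 4 and 11 came from mutant replicates 1 and 2 and 0 and 9 from control replicates 1 and 2. A cluster of 519 nuclei labelled inhibitory neurons 14 goes against its label. It carried Cldn5 at 627.4 CPM, Flt1 at 872.5, and the meningeal genes Ptgds at 11940 and Slc6a13 at 690.5 CPM. The 135 nuclei labelled excitatory neurons 19 also go against their label, with 6435 CPM of the meninges and fibroblast list, which summed to between 35.1 and 122.4 CPM in the other neuronal labels apart from cluster 14. Endothelial-marker nuclei were therefore also set apart without using the 10 genes, as nuclei with UMIs from 3 or more of the 20 other endothelial genes. That rule alone took 322 nuclei of which 209 had neuronal labels and a median of 10548 UMIs, so a limit chosen after seeing the data was added, that the 20 genes make up 0.2% or more of a nucleus's UMIs. It left 86 nuclei, 62 from inhibitory cluster 14, 20 from EC, 3 from excitatory cluster 19 and 1 from granule cells (GC), with 7 nuclei between 0.2% and 0.3% and 24 between 0.1% and 0.2%. The mural list summed to 5996 CPM in them, the meninges and fibroblast list to 3506 and the astrocyte list to 2253, beside 7518 for the endothelial list. By sample the meninges and fibroblast list was at 5998 CPM in control replicate 2 and at 1481 to 1903 in the others. Doublets were not called.

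Cldn5, Flt1 and Slco1a4 had the largest shares of UMIs in endothelial-marker nuclei. The 86 nuclei, of 29425 in all, held 88.6% of all Cldn5 UMIs, 68.9% of Flt1 UMIs and 63.8% of Slco1a4 UMIs. Over the 4 samples these shares ran from 84.5% to 92.8% for Cldn5, from 57.6% to 75.7% for Flt1 and from 53.5% to 83.3% for Slco1a4, and the order of the last pair differed between samples. Cldn5 was at 2344 CPM in them, with a UMI in 93.0% (exact 95% interval 85.4% to 97.4%; 88.4% after thinning each nucleus to 1500 UMIs), and at 0.565 CPM over all neuronal labels. In CA1 neurons, a type that should lack it, 0.401% of nuclei had a Cldn5 UMI (median depth 8720 UMIs, against 3231 in endothelial-marker nuclei). Flt1 was at 2670 CPM and Slco1a4 at 1360 CPM. In the remaining 457 nuclei of inhibitory cluster 14 the same genes were at 33.1, 151.5 and 75.0 CPM, beside 17660 CPM of the meninges and fibroblast list.

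**Figure D3:**
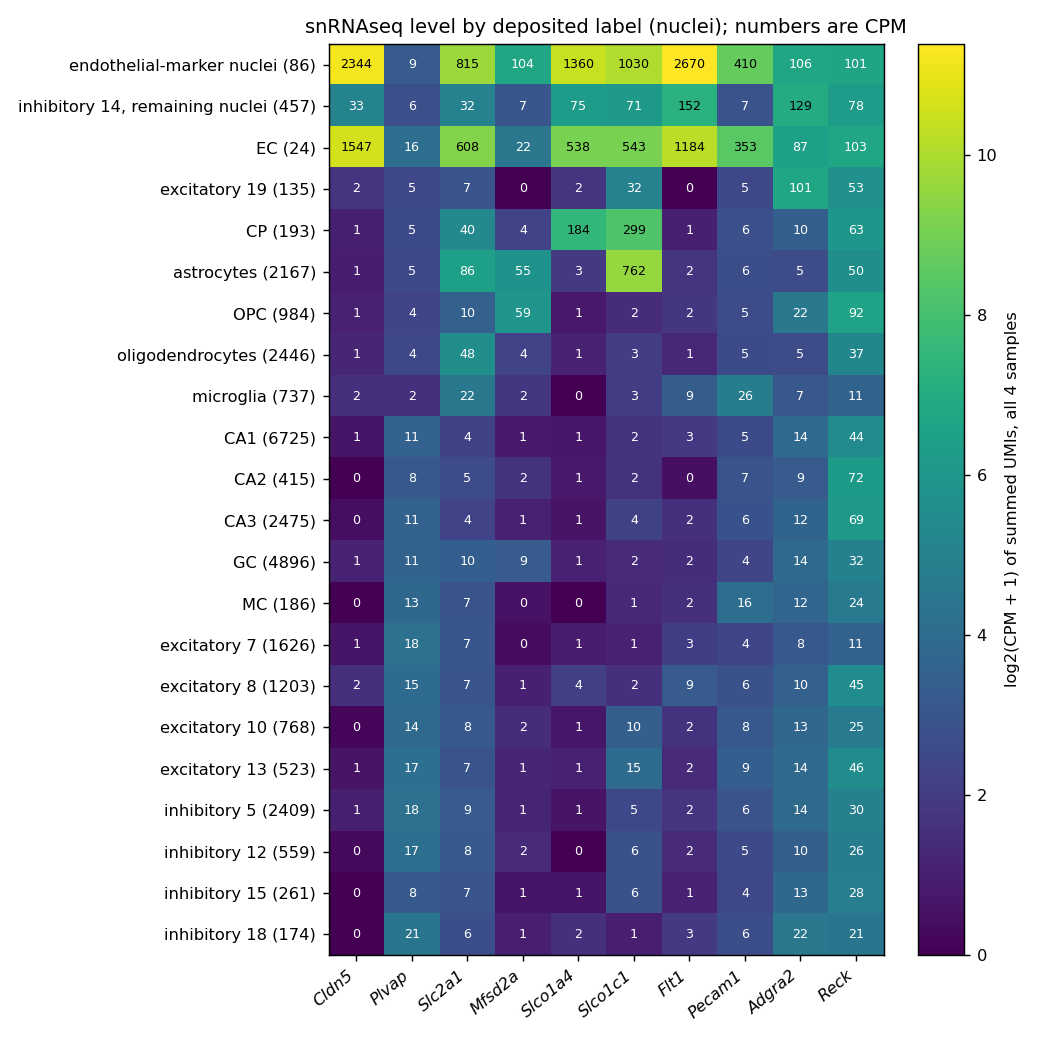
CPM of summed UMIs over all 4 snRNAseq samples, by deposited label (rows, with number of nuclei) and gene; color is log2(CPM + 1). The top row, chosen by other endothelial genes, is drawn from nuclei that also count in the labels below it, mostly inhibitory 14 and EC, and holds the highest values of 7 of the 10 genes, while Plvap is at 9 CPM there and at 8 to 21 CPM in neuronal labels.

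Slco1c1 came mostly from astrocytes, which held 74.0% of its UMIs, at 762.3 CPM, against 1030 CPM in endothelial-marker nuclei, which held 9.52%, and 298.6 CPM in nuclei labelled CP (choroid plexus markers, 21460 CPM in sum). Slco1a4 too was found in CP nuclei (183.7 CPM, 15.2% of its UMIs), and 184 of the 193 CP nuclei came from mutant replicate 2. Slc2a1 was at 814.8 CPM in endothelial-marker nuclei, 86.2 in astrocytes and 47.9 in oligodendrocytes. Endothelial-marker nuclei held 18.8% of its UMIs, astrocytes 20.9%, oligodendrocyte precursor cells (OPC) and oligodendrocytes 11.5%, and the many nuclei with neuronal labels 43.7%, at 5.91 CPM. Mfsd2a was at 104.2 CPM in endothelial-marker nuclei, 59.4 in OPC and 54.8 in astrocytes, the last of which overlapped over samples (57.5 to 65.6 against 35.8 to 76.0 CPM). Its UMIs were 5.86% in endothelial-marker nuclei, 32.3% in astrocytes and 41.5% in neuronal labels, at 2.31 CPM. Pecam1 was at 410.0 CPM in endothelial-marker nuclei and outside the vascular labels at 26.1 CPM in microglia, and the many nuclei with neuronal labels held 73.2% of its UMIs, at 5.55 CPM. Astrocytes, a type that should lack Pecam1, had 5.63 CPM (2.87 to 8.75 over samples). By neuronal label Pecam1 ran from 4.13 CPM (GC) to 16.3 CPM (mossy cells, 2.43 to 32.6 over samples). The part of free RNA in these levels was not tested.

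The Wnt7 co-receptors were not restricted to vessel nuclei. Adgra2 was at 106.0 CPM in endothelial-marker nuclei, at 128.7 CPM in the rest of inhibitory cluster 14 and at 101.4 CPM in the cluster labelled excitatory neurons 19, with its meningeal genes, where Cldn5 was at 2.31 CPM. Reck was at 100.8 CPM in endothelial-marker nuclei, 92.5 in OPC, 72.0 in CA2 and 68.7 in CA3. The 22219 nuclei with neuronal labels, of 29425 in all, held 88.4% of its UMIs, at 42.5 CPM. OPC, inhibitory cluster 14 and CA2 overlapped in Reck over the 4 samples. Nuclei with neuronal labels held 96.4% of Plvap UMIs, at 7.72 to 20.7 CPM by label, beside 4.63 CPM in astrocytes and 1.86 in microglia, and there were 5 UMIs in the 86 endothelial-marker nuclei (8.69 CPM, UMI in 5.81%, interval 1.92% to 13.1%). A Plvap UMI was in 9.89% of CA1 nuclei and 1.29% of astrocytes (median depths 8720 and 2498 UMIs), and in 1.78%, 0.969% and, for endothelial-marker nuclei, 1.16% after thinning to 1500 UMIs. The part of free RNA in these low levels was not tested. Gtpbp3, which shares the end of Plvap on the other strand, was at 10.3 to 19.2 CPM in the same neuronal labels. In the other labels Gtpbp3 ran from 5.43 (EC) to 25.4 CPM (excitatory cluster 19), and Plvap from 1.86 (microglia) to 16.3 CPM (EC). In excitatory cluster 19 Plvap was at 4.61 CPM. In bulk RNAseq Gtpbp3 had a log2 difference of -0.11 (FDR 0.672 by edgeR). The part of Gtpbp3 in the Plvap counts was not tested.

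**Figure D4:**
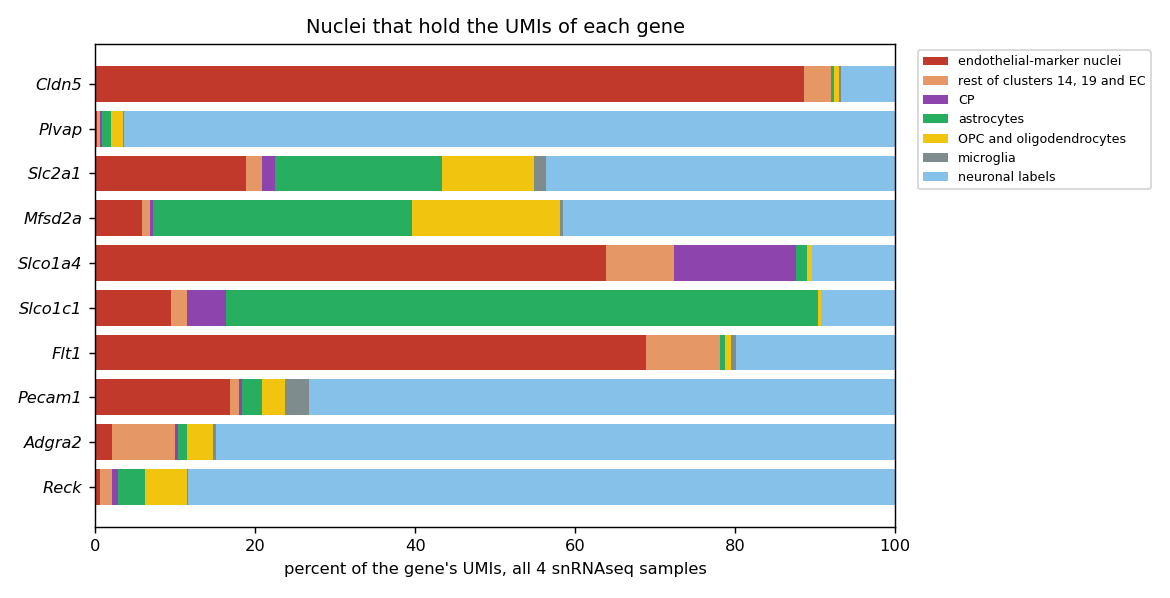
Share of each gene's UMIs (x axis, percent, all 4 samples pooled) by group of nuclei, each nucleus counted once. Endothelial-marker nuclei hold 88.6% of Cldn5 but 0.209% of Plvap UMIs, and astrocytes hold 74.0% of Slco1c1.

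The genes with the most similar pattern over the 21 labels in control nuclei, by Pearson's r of log2(CPM + 1) among 14494 genes, were for Cldn5 Ly6a (0.990), Ly6c1 (0.968) and Adgrl4 (0.949), and for Flt1 Ly6c1 (0.968), Rgs5 (0.954) and Cldn5 (0.939). For Slco1a4 they were Bsg (0.957), Rassf9 (0.950) and Slc13a4 (0.936), for Pecam1 Ptprb (0.897), Rgs4 (0.888) and Rgs5 (0.871), and for Adgra2 Nbl1 (0.913), Efnb1 (0.895) and Ramp2 (0.893). The leading genes were Prdm16 for Slco1c1 (0.921), Acsbg1 for Mfsd2a (0.888), Tmem198 for Plvap (0.937), Uqcrh for Slc2a1 (0.927) and Ppib for Reck (0.782). These are descriptions over 21 labels that share libraries and differ in depth.

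Endothelial-marker nuclei made up 0.170% and 0.449% of nuclei in mutant replicates 1 and 2 and 0.108% and 0.320% in control replicates 1 and 2, and the replicates of a genotype differed more than the genotypes. The difference in mean share was 0.0955 percentage points (exact two-sided permutation p = 0.667, where 2 against 2 cannot go below 0.33). By the rule without the 0.2% limit the difference was -0.0262 points (exact permutation p = 1.0). Within these nuclei Slc2a1 was lower in both mutants, at 608.0 and 685.1 CPM (24 and 184 UMIs) against 978.6 and 975.0 (37 and 224 UMIs), with p = 0.333 by the exact permutation test. Of genes with 50 or more UMIs in these nuclei, 15.2% were lower in both mutants, and in bulk tissue Slc2a1 was higher in both mutants. None of the other 9 genes was separated by genotype here, Cldn5 being at 1951 and 2573 CPM in the mutants and 1296 and 2316 in the controls. A single EC nucleus of control replicate 2 with 73751 UMIs held 147 of the 532 Cldn5 UMIs of that sample's class, and without it the value of Cldn5 in control replicate 2 was 2468 CPM.

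Over 18 cell types with 10 or more nuclei in every sample, 75 tests of the 10 genes passed the count filter of edgeR. On summed UMIs they gave 0 calls, where edgeR called 0.218% of all tests. At an unadjusted edgeR p under 0.05 there were 8 of 75, against 9.31% of all tests. DESeq2, run without that filter, gave 1 call (Slco1c1 in astrocytes). Of 20684 genes in astrocytes DESeq2 called 14 higher and 20 lower. In inhibitory cluster 14 Cldn5 differed by 0.21 (interval -0.89 to 1.31) and Flt1 by 0.31 (interval -0.30 to 0.92). In astrocytes Slco1c1 was at 584.5 and 536.9 CPM in the mutants and at 851.1 and 1019 CPM in the controls, both mutants being lower. The log2 difference was -0.70 (SE 0.17, interval -1.06 to -0.35, FDR 0.0811 by edgeR), and DESeq2 gave -0.73 with an FDR of 0.0177. Without mutant replicate 1, which has 167 astrocytes, the FDR was 0.0394, and it was not called without mutant replicate 2 (-0.65, FDR 0.436), without control replicate 1 (-0.86, FDR 0.879) or without control replicate 2 (-0.53, FDR 0.454). Called genes made up 0.427% of those tested in astrocytes. Mfsd2a in astrocytes differed by -0.85 (SE 0.25, FDR 0.171), at 45.8 and 35.8 CPM in the mutants and 76.0 and 67.9 in the controls.

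**Figure D5:**
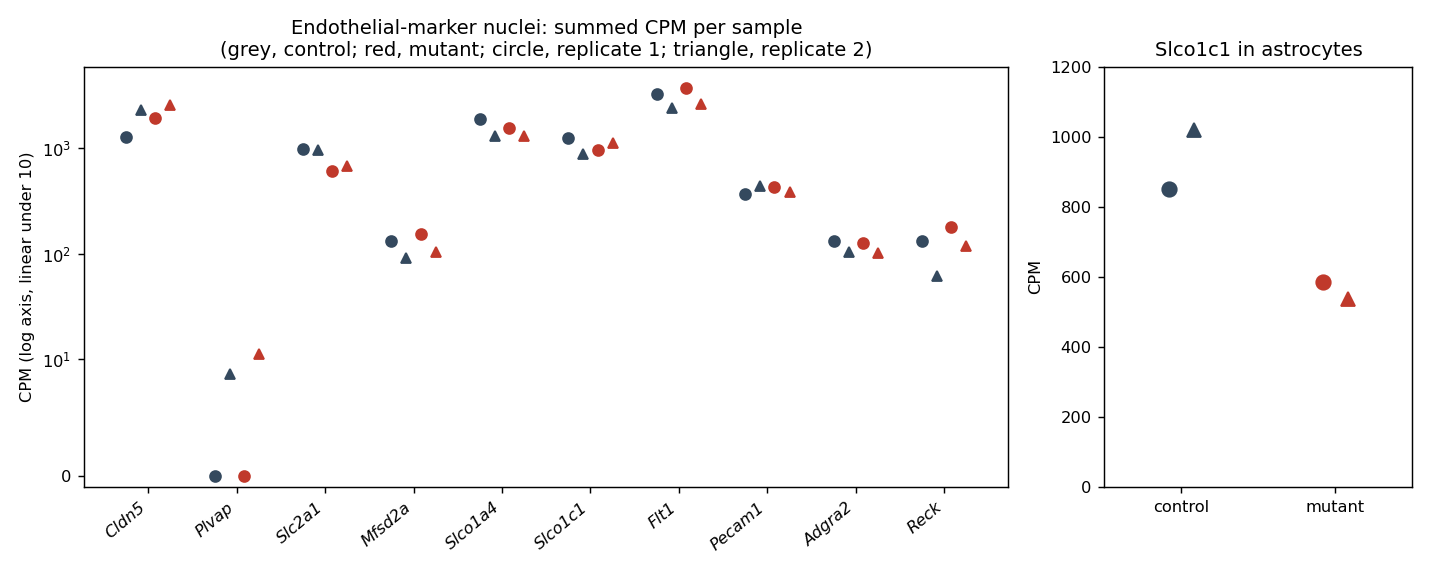
Left, summed CPM of the 10 genes in endothelial-marker nuclei of each sample (log axis, linear under 10 CPM; 9, 47, 7 and 23 nuclei in mutant replicates 1 and 2 and control replicates 1 and 2). Right, Slco1c1 in astrocyte nuclei, at 584.5 and 536.9 CPM in the mutants and 851.1 and 1019 in the controls.

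In granule cell nuclei, of which the mutants had 90 and 463 and the controls 2336 and 2007, Pecam1 gave the lowest FDR of the 75 tests (0.0504, with 1.77% of all genes called in this cell type) at 12.1 and 10.5 CPM (5 and 36 UMIs) in the mutants against 2.64 and 3.63 CPM in the controls. In astrocytes Pecam1 ran from 2.87 to 8.75 CPM over the 4 samples, below both mutant values in granule cells. The part of free RNA in the difference was not tested. Slco1a4 there differed by 3.08 (FDR 0.0714) on 1 and 17 UMIs against 2 and 13. A single nucleus of mutant replicate 2 with 14 of the 20 endothelial genes held 13 of those 17 UMIs, and 20 of the 21 Cldn5 UMIs of that sample's granule cells, but 1 of the 36 Pecam1 UMIs.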

How the data were processed

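RNA from both hippocampi of single mice was measured by bulk RNAseq (2 mutant, 2 control) and snRNAseq (2 mutant, 2 control). The authors made the bulk files with a directional kit and RSEM 1.3.0 with Bowtie2 2.2.9 on mm10, and deposited expected counts and TPM per gene, plus a normalized matrix (signal, scaled per library, method not given in the sources used here). Whether RSEM used strand is not given in the sources used here. The deposited snRNAseq matrices hold raw UMI counts from Cell Ranger 3.1.0 on a pre-mRNA mm10 index, with the authors' cluster labels.

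Expected counts were rounded and tested with edgeR 4.0.16 (filterByExpr, TMM, quasi-likelihood, R 4.3.3), with FDR over all 20687 genes. UMIs were summed per sample and label and tested the same way. DESeq2 1.42.0 and limma 3.58.1 (log2 of the matrix value plus 1) were alternatives. CPM compares libraries and TPM compares genes. In simulated bulk counts with 200 genes changed 4-fold, 76.5% were recovered, and 83.5% in inhibitory cluster 14 (7659 genes). Within-replicate ratios used CPM plus 0.1. Replicates came from separate mice. Intervals on shares of nuclei are exact (Clopper-Pearson) and cover counting error only. Every nucleus had 1500 or more UMIs.

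The 10 genes and all lists were chosen with earlier results of these data known. The text names those 10, Wls, list genes with an FDR under 0.05, the 2 largest differences per list where they add to the text, Xist, Ddx3y and Ttr as checks, and the 3 genes most like each of the 10 (200 or more UMIs in control nuclei), or the first of them.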

Additional observations from a re-analysis of the deposited data

How the results depend on the processing

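Of the 10 genes, 0 were called in bulk RNAseq under DESeq2, RLE size factors, limma on the authors' matrix, the replicate block and the 3-fold rule. With no filter on low counts 1 was called (Slc2a1). All of these settings keep every library. Plvap and Slco1c1 depended on mutant replicate 1, without which their log2 differences were 0.79 and 0.75, the highest of any setting. Genes called over the other lists numbered 9, against 37 by DESeq2, 49 with no filter, 5 with the replicate block (4 granule cell genes and Hba-a2, with Apcdd1, Ptgds and Slc22a6 lost) and 0 to 46 with 1 library left out. Over all genes, 250 were called (41 higher and 209 lower), against 618 and 914 by DESeq2, 969 and 1082 with no filter, 12 and 82 with the replicate block, and 0 in either direction without control replicate 1 or without control replicate 2 (2267 and 1655 genes at an unadjusted p under 0.05). The genotypes were apart for 5 genes in CPM and for 2 in TPM. Signs turned with 1 library left out for Mfsd2a (-0.093 to 0.14), Slco1a4 (-0.29 to 0.12), Slco1c1 (-0.23 to 0.75) and Adgra2 (-0.086 to 0.082); the cause was not tested.

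In snRNAseq cell types 0 tests of the 10 genes were called, against 1 by DESeq2 (Slco1c1 in astrocytes) and 6 with no filter. With the replicate block 3 were called (Slco1c1 in astrocytes, Pecam1 and Slco1a4 in granule cells). Of all genes in granule cells the main fit called 156 higher and 109 lower of 15003. The replicate block called 681 and 758 of 15003 there, and no filter 453 and 488 of 22999. In astrocytes the main fit called 19 and 30 of 11482, and the replicate block 70 and 87. With no filter 72 and 121 of 20684 were called in astrocytes. Replicate numbers are shared by 2 pairs only and nothing in the labels ties them to a batch. In bulk RNAseq they went with Xist in both genotypes, and the deviations of same-numbered libraries correlated at 0.06. That correlation was not taken in snRNAseq. There, median UMIs per nucleus were 4128 (mutant) and 5167 (control) in replicate 1, and 6771.5 and 7544.5 in replicate 2. The part of sex and depth in the replicate block was not tested. The difference in the share of nuclei with 3 or more endothelial genes turned from -0.0262 percentage points to 0.0219 with 2 genes, 0.0865 with 4 genes, 0.0366 without nuclei above the 95th percentile of UMIs, and, chosen after seeing the data, 0.0955 with the 0.2% limit and 0.1025 with that limit and without the deepest nucleus. With 1 sample left out it ran from -0.544 to 0.491. With 2 mice per genotype, differences under about 2-fold were not resolved for Slco1c1 and Plvap. Plvap, Mfsd2a, Adgra2 and Reck rest on few UMIs in endothelial-marker nuclei (5, 60, 61 and 58).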
